A study of Homo sapiens with 18 samples.

Results

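MYB, the neighbouring gene HBS1L and 5 other genes of proliferating blood progenitors (MYC, CDK6, KIT, CD44 and BCL2) were followed through erythroid differentiation in human cells with and without an intact beta-globin gene. The 7 genes were taken by name from a list, chosen with earlier results of these data known. They were 7 of the 35616 genes in the expression table, and 6 of them were among the 12005 genes tested, since BCL2 lay under the filter on low values. The cells were HUDEP-2, a line of erythroid progenitors established from umbilical cord blood and kept dividing by an inducible papillomavirus oncogene system, a limit of the model for genes of proliferation. HUDEP-2 cells labelled WT were compared with HUDEP-2 cells labelled HBBko, in which HBB, the beta-globin gene, was disrupted. Each line was sampled before differentiation and at 48 h and 5 d of it, with 3 libraries per line and stage and 18 in all. The labels give neither the number of HBBko clones nor whether the triplicates were separate cultures, so the p values measure the spread between these libraries, which may be technical. The series title places MYB under ATF4, a transcription factor of the stress response, and ties it to gamma-globin.

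As background, MYB is a transcription factor that keeps haematopoietic progenitors dividing and immature, and it is shut down as erythroid cells mature. The interval between HBS1L and MYB on chromosome 6 holds common variants linked to fetal haemoglobin, which is why the 2 genes are often read together. MYC drives cell growth and ribosome production, CDK6 with its D-type cyclins opens the G1 phase of the cell cycle, and KIT is the receptor for stem cell factor. CD44 is a hyaluronan receptor used to stage erythroblasts, and BCL2 blocks mitochondrial apoptosis.

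Levels are given as scaled TPM, the deposited TPM-like values, which are corrected for transcript length and were further scaled between libraries. Read counts, and so the depth of each library, are unknown. Log2 fold changes are differences of group means of log2(scaled TPM + 1), given with the fit's standard error (SE), and means carry the standard deviation (SD, n = 3). A gene was called at an adjusted p under 0.05 (limma, Benjamini and Hochberg over the 12005 genes). HBB, the gene targeted, was between 4598 and 4983 scaled TPM in undifferentiated HBBko libraries against 12454 to 22376 in WT, and between 69004 and 72650 against 427628 to 458719 at 5 d. Globin genes made up 1.65% to 52.1% of a library, rising with the stage, and at 5 d they made up 50.5% to 52.1% in WT and 38.7% to 39.9% in HBBko. WT replicate 3 stood apart from its group when undifferentiated (HBB at 22376 scaled TPM against 12517 and 12454) and at 48 h (132741 against 99196 and 103106). All 13 erythroid markers were tested, the alpha-globin genes HBA1 and HBA2 among them. The summed level of the 13 was 8400 to 14400 in undifferentiated WT libraries and 10300 to 11500 in HBBko. At 48 h it was 89000 to 115000 in WT and 85600 to 91400 in HBBko. At 5 d it was 319000 to 333000 in WT and 343000 to 357000 in HBBko, higher in HBBko without overlap. Lymphoid markers summed to at most 1.16 and stromal markers to at most 0.5 in any library. Between the lines 9 of the 13 erythroid markers were lower in HBBko and none higher undifferentiated (median log2 fold change -0.30), 5 lower and none higher at 48 h (median -0.27), and 4 lower and 2 higher at 5 d (median 0.04). Of all tested genes 22.3% were lower and 20.9% higher undifferentiated, 9.21% and 9.52% at 48 h, and 24.8% and 26.5% at 5 d. The part of these markers in the members' differences was not tested.

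The promoters of MYB and CDK6 are shown because MYB is the gene that the series title names and CDK6 is the gene of this set with the largest difference between the lines. Each is the 250 bases before a transcription start in RefSeq (GRCh38.p14), 5′ to 3′ on the strand of the gene, with capitals marking a match on either strand to one of 5 short motifs. The motifs were TGATGNAA (ATF4 with C/EBP), AACNG (the MYB core), CACGTG (MYC with MAX), GATAA (GATA factors) and TGACGTCA (the cAMP response element).
MYB, chr6:135181058-135181307, plus strand: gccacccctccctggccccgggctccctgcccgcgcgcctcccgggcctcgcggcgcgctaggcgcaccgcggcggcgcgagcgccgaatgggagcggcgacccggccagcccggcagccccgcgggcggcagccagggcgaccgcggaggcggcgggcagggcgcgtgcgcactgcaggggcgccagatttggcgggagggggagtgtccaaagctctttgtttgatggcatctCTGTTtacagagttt
CDK6 start 1, chr7:92836574-92836823, minus strand: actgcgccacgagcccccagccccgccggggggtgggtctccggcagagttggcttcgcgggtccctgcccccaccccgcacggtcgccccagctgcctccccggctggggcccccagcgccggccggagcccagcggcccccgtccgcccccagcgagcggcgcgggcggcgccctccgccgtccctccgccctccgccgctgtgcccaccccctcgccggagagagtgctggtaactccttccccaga
CDK6 start 2, chr7:92833960-92834209, minus strand: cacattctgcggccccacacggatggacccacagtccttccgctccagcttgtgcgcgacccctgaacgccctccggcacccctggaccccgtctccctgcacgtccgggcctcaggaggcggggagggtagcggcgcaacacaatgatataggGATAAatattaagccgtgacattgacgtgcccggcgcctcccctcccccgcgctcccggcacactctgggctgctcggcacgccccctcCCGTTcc
The MYB window held a single match, CTGTT, the reverse complement of the MYB core, 15 bases before the start. CDK6 start 1 held no match. CDK6 start 2 held a GATAA match whose first base lay 96 bases before the start and a MYB core match 7 bases before it. Of 34943 windows of this length, 70.6% held AACNG, 20.5% GATAA, 6.32% CACGTG, 3.15% TGATGNAA and 1.63% TGACGTCA. Windows were matched for 6 of the 7 genes, all but MYC, and none of these windows held TGATGNAA, CACGTG or TGACGTCA. Both windows shown are rich in G and C, at 75.6% for MYB and 80.0% for CDK6 start 1, with 67.6% for CDK6 start 2. A match is a run of letters and does not show a bound site.

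MYB (ENSG00000118513, chromosome 6, 135181315 to 135219173 on GRCh38, plus strand) fell steeply along differentiation in both lines and was modestly lower in HBBko than in WT. In undifferentiated WT libraries MYB was at 191, 196 and 181 scaled TPM, at 48 h at 79.1, 83.6 and 69.6, and at 5 d at 9.99, 11.2 and 10.4. In HBBko it was at 169, 161 and 166 undifferentiated, at 69.7, 71.7 and 72.8 at 48 h, and at 8.67, 8.50 and 9.15 at 5 d. Every HBBko library lay below every WT library when undifferentiated and at 5 d, whereas at 48 h WT replicate 3 (69.6) was the lowest of the 6. The mean fell to 40.9% of its undifferentiated level by 48 h and to 5.55% by 5 d in WT, and to 43.2% and 5.31% in HBBko. The ratio of means between undifferentiated and 5 d was 18 in WT and 18.8 in HBBko. On the log2 scale the fall over the whole course was -4.05 ± 0.06 in WT (adjusted p = 9.3e-19) and -4.09 ± 0.06 in HBBko (adjusted p = 9.6e-19). Only 99 tested genes (0.825%) had a larger fall than MYB in WT, and 114 (0.95%) in HBBko. In these bulk libraries, fewer cells of a type and less RNA per cell cannot be told apart.

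Between the lines, MYB was lower in HBBko by -0.20 ± 0.06 when undifferentiated (adjusted p = 0.014) and by -0.24 ± 0.06 at 5 d (adjusted p = 0.0034). At 48 h the difference was -0.11 (adjusted p = 0.22). These are small among all genes, since 25.6%, 23.7% and 23.6% of tested genes had a larger fall in the 3 stages. The difference at 5 d was called in 17 of 18 alternatives, among them the one with globins removed. The exception was rescaling each library to the same sum, globins included, which turned it to 0.07 (adjusted p = 0.49). That rescaling moved the median of all tested genes from 0.02 to 0.27 at 5 d and from 0.02 to 0.14 at 48 h, so MYB then still lay below the median gene. It also moved the share of called genes that were higher in HBBko from 51.7% to 86.1% at 5 d and from 50.8% to 84.2% at 48 h. The share of globin RNA and the scaling cannot be told apart from the line here. Within a library the scaling cancels: the log2 ratio of MYB to HBS1L was -0.49 ± 0.05 in HBBko against -0.23 ± 0.05 in WT when undifferentiated, and -3.99 ± 0.01 against -3.82 ± 0.19 at 5 d. The lines did not overlap in this ratio at those 2 stages, although the nearest libraries at 5 d were both at -3.97 (exact permutation test, two-sided, p = 0.1, the smallest that 3 against 3 allow, adjusted p = 0.109 over 12 ratios and stages). At 48 h the ratio differed by -0.06 (exact permutation p = 0.2). The undifferentiated call was lost without HBBko replicate 2 (MYB at -0.18, adjusted p = 0.054), under equal library sums (-0.15, adjusted p = 0.13), with globins removed (-0.17, adjusted p = 0.055) and with only the 2 groups fitted (adjusted p = 0.053). The 48 h difference was called without WT replicate 3 (-0.19, adjusted p = 0.044). The fall of MYB from stage to stage was not shown to differ between the lines, with interaction adjusted p of 0.55, 0.31 and 0.72.

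HBS1L (ENSG00000112339, chromosome 6, 134960378 to 135103056, minus strand), which encodes a GTPase that works with PELO to rescue stalled ribosomes, showed no called difference between the lines at any stage. Its RefSeq start lies 126.5 kb from that of MYB and the 2 genes are transcribed away from each other. In WT it was at 222, 239 and 207 scaled TPM undifferentiated, at 231, 240 and 212 at 48 h, and at 157, 137 and 154 at 5 d. The HBBko libraries were at 230, 235 and 231, then 214, 222 and 221, then 138, 134 and 146. The lines overlapped at every stage, and the level at 48 h overlapped the undifferentiated level in WT. HBS1L differed between the lines by 0.06 undifferentiated (adjusted p = 0.45), -0.05 at 48 h (adjusted p = 0.60) and -0.10 at 5 d (adjusted p = 0.19). By 5 d the mean was at 67.0% of its undifferentiated level in WT (-0.57 ± 0.06, adjusted p = 9.9e-08) and at 60.0% in HBBko (-0.73 ± 0.06, adjusted p = 3.4e-09). The fall of HBS1L therefore came after 48 h and was far smaller than that of MYB. At 5 d HBS1L became higher in HBBko, by 0.24 (adjusted p = 0.016), when libraries were rescaled to the same sum, so its direction there depends on the scaling.

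The other neighbours of MYB were low. AHI1, a cilium gene downstream of MYB (chromosome 6, 135283532 to 135497776), fell from 9.96 ± 0.75 to 2.77 ± 0.66 scaled TPM in WT and from 11.5 ± 0.71 to 4.04 ± 0.69 in HBBko, and it was higher in HBBko at 48 h (0.38 ± 0.11, adjusted p = 0.027) and at 5 d (0.43 ± 0.11, adjusted p = 0.0043). AHI1 thus fell along differentiation as MYB did, but was higher in HBBko at the later stages. ALDH8A1, on the far side of HBS1L, was at 1.26 to 6.66 scaled TPM in group means and differed between the lines by 0.05 to 0.21 (adjusted p of 0.28, 0.88 and 0.43). PELO was higher in undifferentiated HBBko cells by 0.26 ± 0.08 (adjusted p = 0.017). An antisense transcript annotated within MYB was not analysed here, and the library kit does not mark strand, so its reads cannot be told apart from those of MYB.

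MYC (ENSG00000136997, chromosome 8, 127735434 to 127741434, plus strand) also fell with differentiation but went the other way between the lines. In WT it was at 411, 370 and 401 scaled TPM undifferentiated, at 307, 301 and 276 at 48 h, and at 63.1, 65.0 and 61.7 at 5 d. The HBBko libraries were at 454, 442 and 445, then 294, 289 and 301, then 104, 111 and 96.2. The HBBko libraries lay above every WT library undifferentiated and at 5 d and overlapped them at 48 h. MYC was higher in HBBko by 0.18 ± 0.05 undifferentiated (adjusted p = 0.012) and by 0.70 ± 0.05 at 5 d (adjusted p = 2.3e-08), a ratio of means of 1.64. At 48 h the difference was 0.00 (adjusted p = 0.99). At 5 d 3.12% of tested genes had a larger rise in HBBko. The fall from 48 h to 5 d was -2.20 ± 0.05 in WT and -1.5 ± 0.05 in HBBko, and the difference between these falls was itself called (0.70 ± 0.08, adjusted p = 9.7e-06). MYC thus stood at 16.1% of its undifferentiated level in WT and at 23.2% in HBBko at 5 d. The log2 ratio of MYB to MYC within a library was -3.56 ± 0.16 in HBBko against -2.59 ± 0.06 in WT at 5 d, a difference of -0.97, without overlap (exact permutation p = 0.1, the smallest possible, adjusted p = 0.109). The undifferentiated call of MYC was lost when only the 2 groups compared were fitted (adjusted p = 0.076) and under quantile normalization (0.12, adjusted p = 0.067).

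CDK6 (ENSG00000105810, chromosome 7, 92604921 to 92836594, minus strand) gave the largest difference between the lines among the 6 tested genes at every stage. In WT it was at 10.2, 10.1 and 6.09 scaled TPM undifferentiated, at 24.5, 26.6 and 21.2 at 48 h, and at 6.10, 8.53 and 6.64 at 5 d. In HBBko it was at 4.90, 4.65 and 4.06, then 6.03, 6.78 and 6.17, then 1.31, 1.24 and 1.15. No HBBko library reached a WT library of the same stage, and the rise at 48 h in WT was much smaller in HBBko. The ratio of means was 1.94-fold lower in HBBko undifferentiated (log2 -0.80 ± 0.15, adjusted p = 0.00039), 3.82-fold lower at 48 h (-1.77 ± 0.15, adjusted p = 4.9e-07) and 5.73-fold lower at 5 d (-1.84 ± 0.15, adjusted p = 3.1e-08). The log2 fold change understates the last of these, because the HBBko level is near the added value of 1. Only 14 of the 12005 tested genes had a larger fall than CDK6 at 48 h (0.117%) and 28 at 5 d (0.233%). In WT CDK6 rose by 1.38 ± 0.15 from undifferentiated to 48 h (adjusted p = 2.8e-07), to 274% of its level, and fell by 1.64 on the log2 scale by 5 d (adjusted p = 1.3e-08). In HBBko it rose by 0.40 ± 0.15 (adjusted p = 0.023), to 139%, and the difference between the 2 rises was called (-0.98 ± 0.21, adjusted p = 0.0074). The HBBko rise was not called without undifferentiated replicate 3 (CDK6 at 0.34, adjusted p = 0.086) or without 48 h replicate 2 (0.36, adjusted p = 0.076), nor under equal library sums (0.32, adjusted p = 0.10) or with no filter (adjusted p = 0.065). WT undifferentiated replicate 3 held the lowest CDK6 level of its group, and without it the undifferentiated difference was -1.02 (adjusted p = 7.5e-06). Without it, or without WT replicate 2 at 5 d, the fall of CDK6 in WT from undifferentiated to 5 d was called (-0.48, adjusted p = 0.00097, and -0.38, adjusted p = 0.030), against -0.26 (adjusted p = 0.11) with all libraries.

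CDK4, the related kinase, was far more abundant and barely moved with the line. It was at 350 ± 35 scaled TPM in undifferentiated WT cells and 355 ± 2.3 in HBBko, at 249 ± 3.3 and 253 ± 4.4 at 48 h, and at 127 ± 4.9 and 112 ± 7.9 at 5 d. CDK4 differed by 0.02 undifferentiated (adjusted p = 0.79) and 0.02 at 48 h (adjusted p = 0.83), and by -0.18 ± 0.06 at 5 d (adjusted p = 0.022). The log2 ratio of CDK6 to CDK4 was lower in HBBko by -0.95, -1.95 and -2.32 across the 3 stages, with no overlap of libraries at any (exact permutation p = 0.1 each, the smallest possible, adjusted p = 0.109). Of the D-type cyclins that pair with these kinases, CCND2 was lower in HBBko undifferentiated (-0.34 ± 0.09, adjusted p = 0.0086) and at 5 d (-1.0 ± 0.09, adjusted p = 2.3e-07), where it was at 3.48, 4.15 and 2.86 scaled TPM against 7.80, 8.48 and 7.52 in WT. CCND3, the most abundant of the D-type cyclins named here, rose from 155 ± 28 to 800 ± 50 in WT and from 142 ± 2.9 to 643 ± 3.3 in HBBko. It was lower in HBBko at 48 h (-0.36 ± 0.10, adjusted p = 0.019) and at 5 d (-0.31 ± 0.10, adjusted p = 0.016). Equal library sums moved the median of all tested genes from 0.02 to 0.14 at 48 h and to 0.27 at 5 d. The differences of CDK4 and CCND3 at these stages are not given under that scaling and may depend on it.

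**Figure D1:**
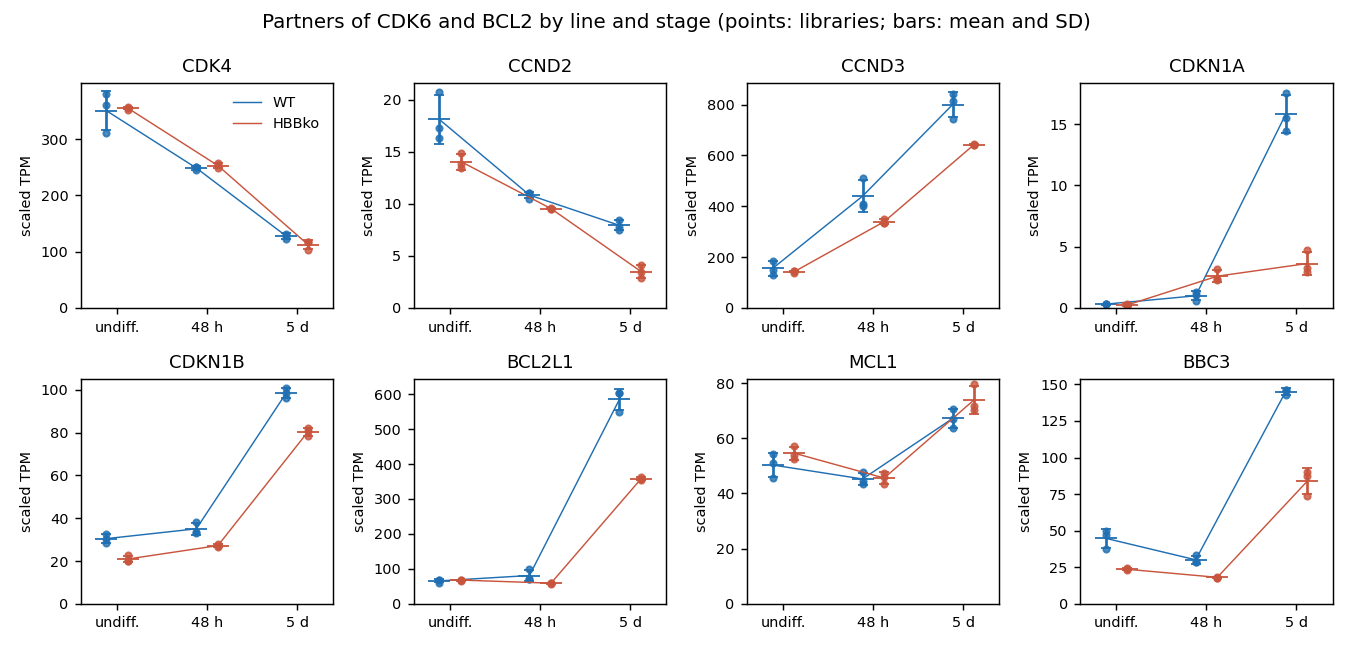
Levels in scaled TPM (vertical axes, linear from 0) of partners of CDK6 and BCL2 at the 3 stages (horizontal axes), with points for libraries, bars for mean and SD, and lines joining the means of WT (blue) and HBBko (red). CDK4 overlapped between the lines while undifferentiated, and CDKN1A and BCL2L1 separated most at 5 d.

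KIT (ENSG00000157404, chromosome 4, 54657918 to 54740715, plus strand) had the steepest fall of the 7 genes, and its lines separated only at 48 h. In WT it was at 180, 190 and 153 scaled TPM undifferentiated, at 35.1, 37.6 and 31.0 at 48 h, and at 1.84, 1.99 and 2.04 at 5 d. In HBBko it was at 180, 190 and 186, then 42.1, 41.9 and 41.5, then 2.05, 1.97 and 1.91. The lines overlapped when undifferentiated and at 5 d, and at 48 h the HBBko libraries all lay above the WT libraries. By 48 h KIT was at 19.8% of its undifferentiated level in WT and 22.6% in HBBko, and by 5 d the means were 89.2-fold and 93.6-fold lower. On the log2 scale these falls were -5.89 ± 0.07 (adjusted p = 2.3e-19) and -5.97 ± 0.07 (adjusted p = 9.3e-20), larger than those of all but 6 tested genes in WT and 15 in HBBko. The 48 h difference between the lines was 0.27 ± 0.07 (adjusted p = 0.016). It was not called without WT replicate 3 (KIT at 0.20, adjusted p = 0.11), without HBBko replicate 1 (0.27, adjusted p = 0.053) or without HBBko replicate 2 (0.27, adjusted p = 0.051). Undifferentiated and at 5 d KIT differed by 0.09 (adjusted p = 0.33) and 0.01 (adjusted p = 0.91).

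KIT is also a receptor of mast cells, and markers of mast cells, basophils and eosinophils were present. Of 9 such markers 6 were tested, and FCER1A and CLC were listed at 0 in every undifferentiated library. Their summed level was 588 to 796 scaled TPM in undifferentiated WT and 918 to 1050 in HBBko, 15.6 to 17.5 and 19.2 to 24.0 at 48 h, and 23.0 to 24.4 and 27.8 to 39.1 at 5 d. The sum fell after the undifferentiated stage as KIT did, and was higher in HBBko at each stage without overlap. Of the 6 tested markers, however, 2 were called higher and 1 lower undifferentiated (median log2 fold change 0.27). At 48 h 1 was higher and none lower (median 0.11), and at 5 d 1 was higher and 1 lower (median -0.06). Over all tested genes the shares higher and lower were 20.9% and 22.3%, 9.52% and 9.21%, and 26.5% and 24.8%. The part of these markers in the KIT values was not tested. KITLG, the ligand, was listed at 0 in every library.

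CD44 (ENSG00000026508, chromosome 11, 35138870 to 35232402, plus strand) was lower in HBBko at all 3 stages, by more at each later stage. In WT it was at 78.6, 66.5 and 66.4 scaled TPM undifferentiated, at 47.2, 50.3 and 46.6 at 48 h, and at 62.0, 58.8 and 61.4 at 5 d. In HBBko it was at 59.4, 66.9 and 60.4, then 33.5, 34.9 and 33.4, then 35.6, 35.0 and 33.1. The lines overlapped only when undifferentiated, where HBBko replicate 2 lay above 2 WT libraries. The difference was -0.18 ± 0.06 undifferentiated (adjusted p = 0.033), -0.49 ± 0.06 at 48 h (adjusted p = 5.4e-05) and -0.80 ± 0.06 at 5 d (adjusted p = 3e-08), a 1.76-fold lower mean at 5 d. The undifferentiated call was lost when WT replicate 1, HBBko replicate 1 or HBBko replicate 3 was left out (CD44 at -0.10, -0.14 and -0.16, with adjusted p of 0.17, 0.13 and 0.10). It was also lost under equal library sums (-0.13, adjusted p = 0.18), with globins removed (-0.15, adjusted p = 0.10), with no filter (adjusted p = 0.061) and with only the 2 groups fitted (adjusted p = 0.17). In WT CD44 dipped at 48 h and then rose by 0.33 ± 0.06 (adjusted p = 0.00011), while in HBBko it stayed at 54.5% and 55.6% of its undifferentiated mean at 48 h and 5 d (0.03 between them, adjusted p = 0.71). The difference between the lines in that step was called (-0.31 ± 0.09, adjusted p = 0.019), and so was that over the whole course (-0.62 ± 0.09, adjusted p = 4.2e-05). Rescaling to equal library sums turned the later step of CD44 in WT to -0.30 (adjusted p = 0.0016), so the direction of that step depends on the scaling, and the interaction of that step was then not called (-0.11, adjusted p = 0.48). That interaction was also not called with globins removed (adjusted p = 0.053), under quantile normalization (-0.19, adjusted p = 0.14) or without HBBko replicate 3 at 5 d (-0.28, adjusted p = 0.0502). At 48 h and 5 d CD44 was called lower in HBBko under every alternative tried. At 48 h 3.63% and at 5 d 4.14% of tested genes had a larger fall than CD44.

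BCL2 (ENSG00000171791, chromosome 18, 63123346 to 63320128, minus strand) was below 1 scaled TPM in every library. In WT it was at 0.286, 0.410 and 0.343 scaled TPM undifferentiated, at 0.435, 0.323 and 0.525 at 48 h, and at 0.118, 0.177 and 0.0908 at 5 d. In HBBko it was at 0.672, 0.510 and 0.679, then 0.779, 0.732 and 0.564, then 0.221, 0.210 and 0.210. All HBBko libraries lay above all WT libraries of the same stage, with a ratio of means of 1.79, 1.62 and 1.66. With no filter on low values (25969 genes tested) BCL2 was higher in HBBko by 0.27 ± 0.06 undifferentiated (adjusted p = 0.0067) and 0.24 ± 0.06 at 48 h (adjusted p = 0.028), and differed by 0.11 ± 0.06 at 5 d (adjusted p = 0.27), values that the added 1 holds near 0. BCL2L1, the related survival gene that erythroblasts use most, ran the other way: it reached 585 ± 31 scaled TPM in WT at 5 d against 358 ± 4.9 in HBBko (-0.71 ± 0.09, adjusted p = 4.6e-06), after -0.43 ± 0.09 at 48 h (adjusted p = 0.0027) and 0.05 undifferentiated (adjusted p = 0.68). The log2 ratio of BCL2 to BCL2L1 was higher in HBBko by 0.79, 1.14 and 1.5, without overlap at any stage (exact permutation p = 0.1 each, the smallest possible, adjusted p = 0.109). MCL1 differed by 0.12, 0.01 and 0.14 across the stages (adjusted p of 0.17, 0.94 and 0.10).

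**Figure D2:**
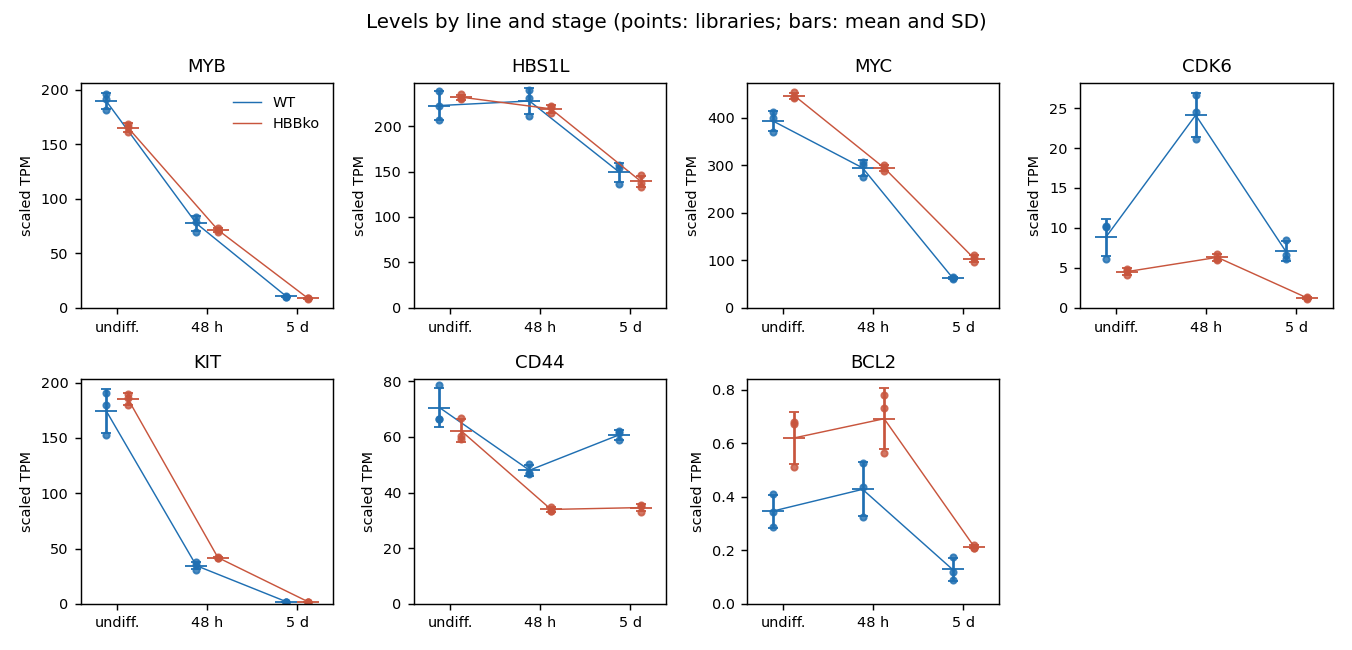
Levels in scaled TPM (vertical axes, linear from 0) of the 7 genes at the 3 stages (horizontal axes), with points for libraries, bars for mean and SD, and lines joining the means of WT (blue) and HBBko (red). MYB and KIT fell at each step in both lines, CDK6 peaked at 48 h in WT at 24.1 scaled TPM against 6.32 in HBBko, and CD44 at 5 d was at 60.8 in WT against 34.6 in HBBko.

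The counts called are set here beside the shares over all tested genes, and whether they differ from those shares was not tested. Undifferentiated, 1 of the 6 tested genes was higher in HBBko (MYC) and 3 lower (MYB, CDK6 and CD44), where 20.9% of all tested genes were higher and 22.3% lower. At 48 h 1 was higher (KIT) and 2 lower (CDK6 and CD44), against 9.52% and 9.21%. At 5 d 1 was higher (MYC) and 3 lower (MYB, CDK6 and CD44), against 26.5% and 24.8%. By the shares given with each gene, some differences were set apart in size from those of most tested genes. They were those of CDK6, of CD44 at 48 h and 5 d, and of MYC at 5 d.

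**Figure D3:**
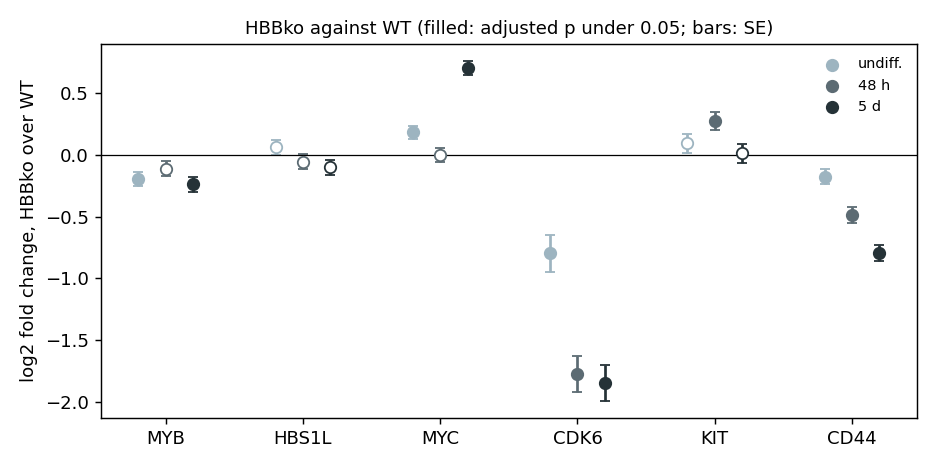
Log2 fold change of HBBko over WT (vertical axis, with SE bars) for the 6 tested genes at each stage, filled where the adjusted p was under 0.05. CDK6 was between -0.80 and -1.84 and CD44 between -0.18 and -0.80, while MYC reached 0.70 at 5 d.

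Along differentiation most of the 6 genes were called at each step, as were most genes tested. From undifferentiated to 48 h 1 rose (CDK6) and 4 fell in each line (MYB, MYC, KIT and CD44), where 23.5% of tested genes rose and 41.4% fell in WT and 25.1% and 40.1% in HBBko. From 48 h to 5 d 1 rose (CD44) and 5 fell in WT, and none rose and 5 fell in HBBko, where 30.8% rose and 49.5% fell in WT and 30.2% and 49.5% in HBBko. Over the whole course 5 fell in WT and 6 in HBBko, against 55.8% and 54.4% of tested genes falling and 30.0% and 31.4% rising. The difference between the lines itself changed for 2 of the 6 genes from undifferentiated to 48 h (CDK6 and CD44) and 2 from 48 h to 5 d (MYC and CD44). Over the whole course it changed for 3 (MYC, CDK6 and CD44). Of all tested genes 13.2%, 24.6% and 45.0% did so. From 48 h to 5 d the CDK6 changes in the fit, -1.64 in WT and -1.71 in HBBko, are compressed by the added 1. Without it they were -1.78 and -2.35, a difference that was not tested.

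The order of levels differed from gene to gene. For MYB the order was WT then HBBko within each stage and undifferentiated then 48 h then 5 d, and only the 2 groups at 48 h overlapped. For KIT the undifferentiated pair overlapped and so did the pair at 5 d. For CDK6 the highest group was WT at 48 h and the lowest was HBBko at 5 d, and WT undifferentiated overlapped WT at 5 d, which in turn overlapped HBBko at 48 h. For CD44 the HBBko groups at 48 h and 5 d were the 2 lowest and overlapped each other. For BCL2 the HBBko groups at 48 h and undifferentiated were the 2 highest and overlapped, and both 5 d groups were lowest and did not.

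Genes around these members were read from lists of known partners and targets. These lists, and those read further below, were chosen with earlier results of these data known. Their counts stand beside the following shares. Of all tested genes, 20.9% were higher in HBBko and 22.3% lower undifferentiated. These shares were 9.52% and 9.21% at 48 h, and 26.5% and 24.8% at 5 d. Undifferentiated, the counts of the MYC network, KIT and BCL2 lists lay near the shares. In the list of MYC target genes of growth and ribosome assembly, 22 of 30 tested genes were higher in undifferentiated HBBko cells and 3 lower, with a median log2 fold change of 0.43 against -0.01 over all tested genes. NOP16 (1.08 ± 0.10, adjusted p = 5e-07) and MYBBP1A (0.97 ± 0.10, adjusted p = 1.6e-06), both nucleolar proteins, led this list. At 5 d 21 were higher and none lower (median 0.32 against 0.02), led by NME1, a nucleoside diphosphate kinase (1.06 ± 0.08, adjusted p = 2.8e-08), and RRS1, a ribosome assembly factor (0.69 ± 0.07, adjusted p = 1.9e-07). At 48 h 12 of the list were higher and none lower (median 0.22), led by GNL3 (0.44 ± 0.11, adjusted p = 0.0078), but only 3 without WT replicate 3, 7 with globins removed before rescaling and 26 with equal library sums. Along differentiation 29 of the 30 fell in each line by 5 d (median -2.16 in WT and -2.34 in HBBko, against -0.36 and -0.33). Of all tested genes 55.8% fell in WT and 54.4% in HBBko.

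Of the MYC network, MYC itself with its partners and antagonists, 4 of 17 tested genes were higher and 4 lower undifferentiated, 1 and 3 at 48 h, and 4 and 5 at 5 d (8 higher and 2 lower under equal library sums). MXI1, a MYC antagonist that binds MAX, was lower at each stage (-0.57 ± 0.07, -0.52 ± 0.07 and -0.94 ± 0.07, with adjusted p of 1.8e-05, 0.00015 and 2.9e-08). It was at 118 ± 4.1 scaled TPM in HBBko at 5 d against 227 ± 8.2 in WT. MXD3, of the same antagonist family, was lower undifferentiated (-0.70) and at 48 h (-0.64), with adjusted p of 0.00055 and 0.0032. MLXIPL, a glucose-responsive factor, was lower undifferentiated (-1.43 ± 0.16, adjusted p = 5.5e-06) and at 5 d (-0.94 ± 0.16, adjusted p = 0.00015). RUVBL1, a MYC cofactor, was higher at 5 d (1.01 ± 0.05, adjusted p = 1.4e-10), and MAX itself was higher undifferentiated (0.26 ± 0.09, adjusted p = 0.027), with 0.18 at 48 h (adjusted p = 0.19) and 0.16 at 5 d (adjusted p = 0.15).

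Among genes listed as MYB family, cofactors and turnover, MYB included, 6 of 16 tested genes were lower and 1 higher undifferentiated (median -0.15), 5 lower at 48 h (median -0.13) and 10 lower at 5 d (median -0.31), with none higher at the later stages. Under equal library sums the list had 2 higher and 2 lower at 48 h (median 0) and 4 higher and 3 lower at 5 d (median 0.01), so its counts depend on that scaling. Its medians then still lay below those of all tested genes, 0.14 at 48 h and 0.27 at 5 d. With globins removed, median-of-ratios scaling or quantile normalization, 5 were lower at 48 h and 10 at 5 d, with none higher. CEBPB, a partner of MYB on myeloid promoters, was the most reduced of the list at each stage (-1.41 ± 0.17, -0.86 ± 0.17 and -1.08 ± 0.17, with adjusted p of 8.3e-06, 0.0022 and 5.4e-05). NLK, a kinase that marks MYB for turnover, was lower undifferentiated (-0.60 ± 0.07, adjusted p = 5.2e-06). FBXW7, a ubiquitin ligase subunit that also acts on MYC, was lower at 48 h (-0.38 ± 0.08, adjusted p = 0.005), and KMT2A, a histone methyltransferase, at 5 d (-0.74 ± 0.07, adjusted p = 4.2e-07). MYBL2, the cell cycle paralogue, rose from 143 ± 12 to 423 ± 9.9 scaled TPM in WT and from 145 ± 4.2 to 332 ± 11 in HBBko. It was lower in HBBko at 5 d (-0.35 ± 0.06, adjusted p = 7e-05), a difference not given under equal library sums that may depend on them. MYBL1 was at 0.2 to 0.3 scaled TPM in group means and was not tested. MYB and MYBL2 thus ran in opposite directions along differentiation.

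In the list of the CDK4 and CDK6 axis, CDK6 included, 5 of 24 genes were higher and 8 lower undifferentiated, 4 and 6 at 48 h, and 2 and 13 at 5 d (median -0.28; 9 higher and 6 lower under equal library sums). CDKN1A, a cell cycle inhibitor, rose late and was at 15.5, 14.4 and 17.5 scaled TPM in WT at 5 d and at 4.71, 3.25 and 2.91 in HBBko (-1.88 ± 0.15, adjusted p = 3.1e-08). At 48 h it was the other way, 1.04, 0.589 and 1.32 in WT against 3.15, 2.25 and 2.35 in HBBko (0.86 ± 0.15, adjusted p = 0.00083). CDKN2B, an inhibitor of CDK4 and CDK6, was lower at 48 h (-0.93 ± 0.13, adjusted p = 0.00015) and at 5 d (-0.90 ± 0.13, adjusted p = 3e-05). CCND1 (1.23 ± 0.19, adjusted p = 9.5e-05) and E2F5 (0.73 ± 0.09, adjusted p = 8.6e-06) were higher undifferentiated. CDK6 and CDKN1A therefore were both lower in HBBko at 5 d and went opposite ways at 48 h.

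Among genes listed for KIT receptor signalling, KIT included, 3 of 24 tested genes were higher and 5 lower undifferentiated, 2 and 4 at 48 h, and 2 and 9 at 5 d (8 higher and 4 lower under equal library sums). GAB2, a docking protein, was lower undifferentiated (-1.12 ± 0.10, adjusted p = 4.3e-07) and at 5 d (-1.90 ± 0.10, adjusted p = 3.4e-10), when KIT itself did not pass the test. SH2B3, an adaptor that restrains KIT signalling, was lower undifferentiated (-0.67 ± 0.07, adjusted p = 2.3e-06), at 48 h (-0.84 ± 0.07, adjusted p = 6e-07) and at 5 d (-0.69 ± 0.07, adjusted p = 5.5e-07). LYN, a kinase of the SRC family, was higher at 48 h (0.40 ± 0.09, adjusted p = 0.0069), and DUSP6, a phosphatase induced by ERK signalling, at 5 d (1.23 ± 0.13, adjusted p = 5.8e-07).

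In the list of CD44 adhesion and hyaluronan, CD44 included, 3 of 14 tested genes were higher and 7 lower undifferentiated, 1 and 6 at 48 h, and 4 and 7 at 5 d (median -0.27; 4 and 4 with a median of -0.01 under equal library sums). ITGA5, a fibronectin receptor subunit, was the most reduced, from 23.3 ± 3.5 scaled TPM in WT to 5.04 ± 0.66 in HBBko undifferentiated (-2.00 ± 0.16, adjusted p = 1e-07), with -1.15 at 48 h (adjusted p = 9e-05) and -1.61 at 5 d (adjusted p = 3.1e-07). HMMR, another hyaluronan receptor, was lower undifferentiated (-0.84 ± 0.08, adjusted p = 4.3e-07) and at 5 d (-0.24 ± 0.08, adjusted p = 0.014). HYAL2, a hyaluronidase, was lower at 5 d (-1.26 ± 0.10, adjusted p = 3.5e-08). EZR, which ties CD44 to the cytoskeleton, was lower at 48 h (-0.36 ± 0.09, adjusted p = 0.0095) and by more at 5 d (-1.12 ± 0.09, adjusted p = 3e-08). CD44 was thus lower in HBBko beside 6 other genes of the list undifferentiated and at 5 d, while 3 and 4 others were higher.

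In the list of the BCL2 family, 3 of 13 tested genes were higher and 4 lower undifferentiated, and 5 were lower with none higher at 48 h and at 5 d (4 higher and 3 lower at 5 d under equal library sums). BCL2L1, a survival gene, was among those lower at 48 h (-0.43, adjusted p = 0.0027) and at 5 d (-0.71, adjusted p = 4.6e-06). BBC3, which promotes apoptosis as do PMAIP1 and BAX, was lower at each stage (-0.88 ± 0.09, -0.70 ± 0.09 and -0.79 ± 0.09, with adjusted p of 2e-06, 6e-05 and 2.2e-06), at 145 ± 2.2 scaled TPM in WT and 83.9 ± 9.1 in HBBko at 5 d. PMAIP1 was lower undifferentiated (-0.89 ± 0.10, adjusted p = 6.8e-06) and at 48 h (-0.66 ± 0.10, adjusted p = 0.00037). BAX was lower at 5 d (-0.55 ± 0.08, adjusted p = 2.1e-05).

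**Figure D4:**
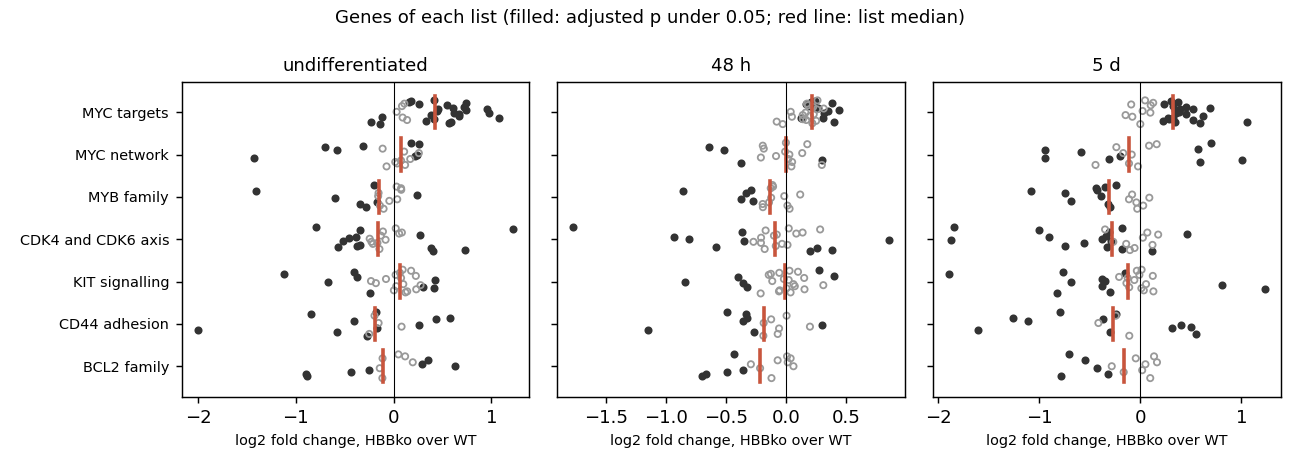
Log2 fold change of HBBko over WT (horizontal axes) for every tested gene of 7 lists around the members at the 3 stages, filled where the adjusted p was under 0.05, with the list median as a red line. The MYC target genes lay mostly above 0 at each stage, with 22 of 30, 12 of 30 and 21 of 30 called higher. Of all tested genes 20.9%, 9.52% and 26.5% were called higher.

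The series title ties MYB to ATF4 and to gamma-globin. KLF1, GATA2 and BCL11A, given here with them, came from the partners and lists set for this report. ATF4 was at 578 ± 109 scaled TPM in WT and 292 ± 18 in HBBko undifferentiated (-0.97 ± 0.09, adjusted p = 9.7e-07), lower at 48 h (-0.56 ± 0.09, adjusted p = 0.00061) and equal in mean at 5 d (732 ± 27 against 731 ± 55, adjusted p = 0.98). KLF1, an erythroid activator downstream of MYB, was lower at each stage (-0.54 ± 0.09, -0.46 ± 0.09 and -0.39 ± 0.09, with adjusted p of 0.00023, 0.0024 and 0.002). Equal library sums moved the median of all tested genes at 5 d from 0.02 to 0.27. The 5 d differences of KLF1 and ATF4 are not given under that scaling and may depend on it. GATA2, a progenitor factor, was higher in undifferentiated HBBko cells (0.95 ± 0.16, adjusted p = 0.00017), at 210 ± 33 scaled TPM against 109 ± 26. BCL11A, a repressor of the gamma-globin genes, was lower at 48 h (-0.55, adjusted p = 0.00029) and at 5 d (-0.77, adjusted p = 1.2e-06). The gamma-globin genes HBG1 and HBG2, near-identical copies between which reads may be split, were higher at each stage, by 1.05, 1.72 and 3.42 for HBG1 and 0.76, 1.53 and 3.43 for HBG2.

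For each member the genes with the most similar profile were sought among 8671 genes with a mean of at least 5 scaled TPM, by the root mean square difference of centred log2 values over the 6 group means. KHK (0.124), MGST2 (0.128) and GRAMD1A (0.139) were nearest to MYB, a ketohexokinase, a glutathione transferase and a sterol transporter. MGST2 fell from 52.4 to 2.43 scaled TPM in WT group means and from 42.0 to 2.36 in HBBko, close to the course of MYB at lower levels. RPL23 (0.0914), a ribosomal protein gene, was nearest to MYC. Since RPL23 was picked for its likeness to MYC over the same groups, its higher level in HBBko at 5 d (0.79 ± 0.06) is no separate evidence. GPI (0.158), a glycolytic enzyme gene, was nearest to KIT, and FABP5 (0.298) and its pseudogene FABP5P7 (0.301), whose reads may be shared, followed at a greater distance. RABAC1 (0.0865) was nearest to CD44 and SERF2 (0.0233) to HBS1L. No match is given for BCL2, whose group means under 1 scaled TPM leave a nearly flat profile once 1 is added. CDK6 had no close match: its nearest gene was HIST1H4B at 0.400, a histone gene from a family of closely related copies among which reads may be split, followed by EVPL at 0.425. Over the 18 libraries in place of the group means, 12 of the 21 nearest genes, those of BCL2 counted, were again among the 3 nearest. Of the genes named here GRAMD1A, FABP5P7, SERF2 and HIST1H4B were not.

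In the authors' deposited table, fitted separately for each stage, MYB had a log2 fold change of -0.21 undifferentiated (q = 0.078), -0.12 at 48 h (q = 0.21) and -0.26 at 5 d (q = 0.0012). CDK6 had -0.93 (q = 0.0017), -1.94 (q = 1.2e-72) and -2.50 (q = 9.1e-42) in the authors' deposited table. MYC had 0.17 (q = 0.19), -0.01 (q = 0.90) and 0.71 (q = 1.9e-33) in the authors' deposited table. CD44 had -0.19 (q = 0.17), -0.51 (q = 1.1e-20) and -0.82 (q = 2.7e-25), and KIT 0.27 at 48 h (q = 0.0019), in the authors' deposited table. BCL2, below the filter used here, had 0.83 (q = 0.0018), 0.69 (q = 0.022) and 0.77 (q = 0.034) in the authors' deposited table. The undifferentiated differences of MYB, MYC and CD44 thus passed a threshold of 0.05 in the fit of all 18 libraries and did not in the authors' deposited table. Those of CDK6 at each stage, of CD44 and KIT at 48 h, and of MYB, MYC and CD44 at 5 d passed in both.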

How the data were processed

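RNA was sequenced from 18 libraries of HUDEP-2 cells. Per the labels' protocols, total RNA went into TruSeq libraries, and the tools in the submitters' processing notes are kallisto and sleuth, with hg38 as the build and no versions. The authors deposited a gene table named as TPM, but its library sums run from 783213 to 1508342, so it is a signal called scaled TPM here, whose scaling step is not given in the sources used here. The plan had assumed plain TPM, and the test was kept. The columns name the lines as thal and wen, which were read as HBBko and WT from the names alone. HBB was lower in every thal library of each stage. The authors also deposited 1 table per stage with log2 fold changes, p-values and q-values. Variance terms in the authors' deposited tables (score columns) were not used.

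The filter kept 12005 genes that reached 1 scaled TPM in 3 or more libraries. Their log2(scaled TPM + 1) values entered limma 3.58.1 (lmFit, eBayes with trend, under R 4.3.3), with 1 mean for each of 6 groups and 12 residual degrees of freedom. Tests were two-sided, over 12 comparisons. The procedure was also tested on simulated data. The precision rests on the replicate spread alone, as depth is unknown. The members and the 17 gene lists (263 genes) were chosen with earlier results of these data known. Named genes were the members, set partners, up to 2 called genes with the largest change per list and comparison, and the 3 nearest profiles per member. Positions are from GENCODE v29 (GRCh38), and promoter sequences from RefSeq. The alternatives concerned the pseudocount, filter, scaling, block, weights, fit and each library left out. Scalings and left-out libraries for the lists were added after seeing the data.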

Additional observations from a re-analysis of the deposited data

Results flagged for a closer look

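For 3 of the 6 tested genes the difference between HBBko and WT itself changed from one stage to another. The change was tested in the fit of all 18 libraries (limma interaction, adjusted over 12005 genes). Of all tested genes 13.2% were called from undifferentiated to 48 h, 24.6% from 48 h to 5 d and 45.0% over the whole course. The count of 3 of 6 over the whole course thus lay near the background. For CDK6 the HBBko against WT difference became more negative by -0.98 ± 0.21 from undifferentiated to 48 h (adjusted p = 0.0074) and by -1.05 ± 0.21 from undifferentiated to 5 d (adjusted p = 0.00071). For CD44 the difference moved by -0.31 ± 0.09 from undifferentiated to 48 h (adjusted p = 0.031), by -0.31 ± 0.09 from 48 h to 5 d (adjusted p = 0.019) and by -0.62 ± 0.09 over the whole course (adjusted p = 4.2e-05). For MYC it moved upward by 0.70 ± 0.08 from 48 h to 5 d (adjusted p = 9.7e-06) and by 0.52 ± 0.08 from undifferentiated to 5 d (adjusted p = 5.5e-05). The first of the CD44 changes was not called in 11 of 24 alternatives, among them without WT undifferentiated replicate 3 (-0.27, adjusted p = 0.054). The CDK6, MYC and whole-course CD44 changes listed here were called in all 24 alternatives.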

How the results depend on the processing

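Across 18 alternatives per comparison (24 for an interaction), CDK6 at every stage, CD44 at 48 h and 5 d and MYC at 5 d were called in the same direction in all 18, whereas MYB undifferentiated was called in 14, MYB at 5 d in 17, MYC undifferentiated in 16, KIT at 48 h in 15 and CD44 undifferentiated in 11. Depth is unknown, so it limits BCL2, which no filtered fit tested, most. The number of members called between the lines undifferentiated fell from 4 to 2 under equal library sums, 2 with globins removed and 1 with only the groups compared fitted, and at 48 h rose from 3 to 5 with library weights. The members called in the first interaction fell from 2 to 1 with no filter, equal sums, library weights or only the groups compared, and in the interaction from 48 h to 5 d from 2 to 1 under equal sums, globins removed and quantile normalization. With each library left out in turn, the members called were 3 to 4 undifferentiated, 2 to 3 at 48 h and 4 to 5 at 5 d between the lines, and 1 to 2, 1 to 3 and 3 to 4 for the 3 interactions. Over all genes, 5197 were called undifferentiated and 3021 with only the groups compared fitted, and at 48 h 2249 against 4186 under equal sums, 4240 with only the groups fitted and 5189 with library weights. The cause was not tested.

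Equal library sums reversed MYB at 48 h (0.0284) and 5 d (0.0676), and its later interactions (0.0392 and 0.22). They reversed HBS1L at 48 h (0.0871) and 5 d (0.24), in WT at 48 h (-0.17) and in its later interactions (0.15 and 0.13). They reversed the later step of CD44 in WT (-0.30) and HBBko (-0.41), the CDK6 interaction from 48 h to 5 d (0.17) and the KIT interaction over the course (0.0793). Median-of-ratios scaling reversed MYC at 48 h (-0.0176), KIT at 5 d (-0.0116), and over the WT course CDK6 (0.019) and CD44 (0.10). Quantile normalization reversed the WT course of CDK6 (0.36) and the HBS1L interaction from 48 h to 5 d (0.0283). A pseudocount of 5 reversed CDK6 (0.41) and MYB (0.0195) in an interaction. Removing globins reversed MYC at 48 h (-0.0066), as did library weights (-0.0309), which also reversed CDK6 in the interaction from 48 h to 5 d (0.0159).

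Leaving out 1 library reversed only differences near 0. MYC at 48 h ranged from -0.0449 without WT replicate 3 to 0.0304, and KIT at 5 d from -0.016 without WT replicate 1 to 0.033. HBS1L in WT from undifferentiated to 48 h ranged from -0.0199 without undifferentiated replicate 3 to 0.0848. In the interaction from 48 h to 5 d, CDK6 ranged from -0.158 to 0.0541 and HBS1L from -0.1056 to 0.0064, and over the whole course KIT ranged from -0.1468 to 0.0119. With the replicate number as a block the members called stayed at 4, 3 and 4 between the lines, and the block changed none of the 12 counts of members called. Libraries with the same number correlated at -0.103 to 0.194 (median 0.0414 over 45 pairs, 10 of them over 0.1), and 16 of 18 libraries correlated best with their own number, a hint from the data and not from the design, since the labels tie a number to no shared culture or day.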

Other observations

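Of 14 tested haematopoietic progenitor transcription factors, MYB and MYC included, 9 were lower and 5 higher at 5 d than undifferentiated in WT (median -1.43 against -0.36 over all tested genes) and 8 lower and 4 higher in HBBko (median -1.70 against -0.33). Over all tested genes 55.8% were lower and 30.0% higher in WT, and 54.4% and 31.4% in HBBko, so the counts lay near the background. Between the lines 5 of 14 were higher and 4 lower undifferentiated (20.9% and 22.3% of all tested genes), 1 and 2 at 48 h (9.52% and 9.21%), and 4 and 6 at 5 d (26.5% and 24.8%). Under equal library sums 5 of the list were higher and 2 lower at 5 d (median 0.15). RUNX1, a master regulator of definitive haematopoiesis, was lower in HBBko at 48 h (-0.42, adjusted p = 0.017) and at 5 d (-0.63, adjusted p = 0.00019). Its partner CBFB was higher undifferentiated (0.86, adjusted p = 0.002) and lower at 5 d (-0.64, adjusted p = 0.011). HHEX, a homeobox factor, was higher undifferentiated (0.71, adjusted p = 6.6e-05) and at 48 h (0.34, adjusted p = 0.035).

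Counts of the next lists stand beside 20.9% of all tested genes higher in HBBko and 22.3% lower undifferentiated. The shares were 9.52% and 9.21% at 48 h, and 26.5% and 24.8% at 5 d. A list of 11 globin regulators linked to MYB also counts the globin genes HBB, HBG1 and HBG2. In it 9 were lower and 2 higher in undifferentiated HBBko cells, 6 and 3 at 48 h, and 4 and 3 at 5 d, and without WT undifferentiated replicate 3 the first count was 5 lower. With globins removed before rescaling, the list had 6 lower and none higher undifferentiated, 5 and 1 at 48 h, and 3 and 1 at 5 d, and under equal library sums it had 2 lower and 7 higher at 5 d. SOX6, which acts with BCL11A, was lower undifferentiated (-0.44, adjusted p = 0.012) and at 48 h (-0.60, adjusted p = 0.0043). KDM1A, a histone demethylase, was lower undifferentiated (-0.31, adjusted p = 0.00019) and higher at 5 d (0.37, adjusted p = 1.6e-05). In the list of ribosome rescue genes with HBS1L, itself counted, 6 of 18 were higher and 2 lower undifferentiated, 2 and 1 at 48 h, and 5 and 5 at 5 d. Under equal library sums 5 of that list were higher and none lower at 48 h, and 13 higher and 1 lower at 5 d (median 0.35). ABCE1, which recycles ribosomes, was higher undifferentiated (0.44, adjusted p = 0.0046) and at 5 d (0.43, adjusted p = 0.0041). VCP, an unfolding ATPase, was higher undifferentiated (0.39, adjusted p = 5.7e-06) and at 5 d (0.26, adjusted p = 0.00013). GTPBP2, a partner of PELO, was lower at 5 d (-0.51, adjusted p = 4.2e-05). Of 7 tested genes of the HBS1L and MYB locus, both members counted, 2 were lower undifferentiated (MYB and SGK1, the latter by -0.25, adjusted p = 0.048). At 48 h 1 was higher (AHI1), and none of the list was higher and 1 lower without WT replicate 3. At 5 d 2 were higher, AHI1 (0.43, adjusted p = 0.0043) and BCLAF1 (0.42, adjusted p = 0.016), and 1 lower, MYB. Under equal library sums none of the list was called undifferentiated, and 6 were higher and none lower at 5 d. Megakaryocyte markers summed to 3.17 to 36.4 scaled TPM and myeloid markers to at most 3.16 over all libraries.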
